A study of Mus musculus with 3 samples.

Results

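*Sox7*, *Sox17*, *Sox18*, *Erg*, *Fli1*, *Ets1*, *Tal1*, and *Gata2* encode transcription factors of the endothelium. These 8 genes, 8 of the 28692 genes in the count tables, were chosen by their gene symbols and not by a rule on measured values. Earlier results of these data were known when the genes were chosen. The genes are described here across endothelial cell (EC) subtypes and the other cell types of the lung. The cells came from whole lungs, taken at P14, of 3 WT C57BL/6 mice (numbered 2, 3, and 4) that had breathed room air since P1. All 3 mice belong to 1 condition, so cell types were compared and the mice, not the cells, were the replicates. Droplet scRNA-Seq of the 3′ ends of transcripts was used, in which each captured transcript carries a unique molecular identifier (UMI), so that its amplified copies are counted once.

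Sox7, Sox17, and Sox18 form the SoxF group of HMG-box factors, which act in lymphatic, arterial, and capillary development and can stand in for each other in part. Erg, Fli1, and Ets1 are ETS factors, which bind a short GGAA core found near most endothelial genes. Erg and Fli1 keep ECs differentiated and their junctions closed, whereas Ets1 acts in angiogenesis and also in lymphocytes. Tal1, a basic helix-loop-helix factor that binds E-boxes, and Gata2, a zinc finger factor that binds GATA sites, work in 1 complex with Lmo2 and Ldb1 and are required for blood stem cells as well as for vessels. Fli1, Tal1, and Gata2 are known in megakaryocytes, and Gata2 in mast cells and basophils.

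The SoxF and ETS members belong to families with similar DNA-binding domains, so the coding stretches in which they are most alike are given first. Reads of the 3′ ends of transcripts need not cover these stretches. The 60 coding bases most alike in the 3 SoxF members encode part of the HMG box, the DNA-binding domain of Sox factors. Capitals mark the 12 positions at which at least 1 of the 3 differs, in the GENCODE M21 transcripts (5′ to 3′, coding strand).

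Sox7: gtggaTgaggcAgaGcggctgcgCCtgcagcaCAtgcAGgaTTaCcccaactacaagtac

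Sox17: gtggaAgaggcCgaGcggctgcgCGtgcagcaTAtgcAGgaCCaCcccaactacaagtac

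Sox18: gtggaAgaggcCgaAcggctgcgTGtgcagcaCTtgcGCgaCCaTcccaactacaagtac

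The corresponding 60 bases of the 3 ETS members encode part of the ETS domain and differ at 14 positions.

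Erg: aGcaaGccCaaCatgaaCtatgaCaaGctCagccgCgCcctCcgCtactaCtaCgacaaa

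Fli1: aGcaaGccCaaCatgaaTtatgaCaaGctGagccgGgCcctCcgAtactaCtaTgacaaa

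Ets1: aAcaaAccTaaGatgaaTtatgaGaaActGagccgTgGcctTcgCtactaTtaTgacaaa

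*Erg* and *Fli1* matched at 55 of these 60 bases, *Fli1* and *Ets1* at 49, and *Erg* and *Ets1* at 47. *Sox7* and *Sox17* matched at 54, *Sox17* and *Sox18* at 53, and *Sox7* and *Sox18* at 49. No run of 31 bases was shared by the annotated transcripts of any of the 28 pairs of members.

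The members lie on 7 chromosomes of GRCm38, *Sox7* at chr14:63943673-63950732, *Sox17* at chr1:4490931-4497354, *Sox18* at chr2:181669836-181671640, *Erg* at chr16:95359169-95586593, *Tal1* at chr4:115056426-115071755, and *Gata2* at chr6:88193891-88207032. *Fli1* (chr9:32422204-32542861) and *Ets1* (chr9:32636221-32757820) are neighbors on chromosome 9. *Fli1* is overlapped on the opposite strand by *Gm27201* and *Ets1* by *Gm27240*, both of which are counted as genes of their own. Other annotated genes overlap *Fli1* on its own strand (5 genes) and *Sox17* on the opposite strand (*Gm37587*), and none of these is in the count tables. RefSeq upstream windows that end at the annotated gene start were found for *Erg*, *Tal1*, and *Gata2*. *Tal1* and *Gata2*, whose levels followed each other most closely outside the SoxF group and *Erg*, are shown with the 250 bases upstream of the start, with matches of GGAA and GATAA on either strand in capitals (GRCm38.p6, plus strand).

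Tal1, chr4:115056176-115056425: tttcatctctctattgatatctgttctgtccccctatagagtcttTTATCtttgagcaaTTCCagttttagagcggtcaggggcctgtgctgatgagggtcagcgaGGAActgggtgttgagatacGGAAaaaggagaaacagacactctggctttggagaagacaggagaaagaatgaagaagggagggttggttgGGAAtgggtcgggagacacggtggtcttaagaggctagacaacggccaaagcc

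Gata2, chr6:88193641-88193890: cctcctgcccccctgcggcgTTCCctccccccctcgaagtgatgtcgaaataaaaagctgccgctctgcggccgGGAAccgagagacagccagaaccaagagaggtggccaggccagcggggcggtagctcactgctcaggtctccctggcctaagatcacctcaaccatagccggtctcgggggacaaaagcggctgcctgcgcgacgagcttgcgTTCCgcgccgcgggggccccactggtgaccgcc

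*Tal1* held 4 matches of GGAA and 1 of GATAA, *Gata2* held 3 and 0, and the *Erg* window (chr16:95586594-95586843) held 0 of both. No match of one motif overlapped a match of the other. Of all 32851 windows of this length, 93.4% held GGAA and 22.6% GATAA, and these letters alone do not show binding. The E-box CANNTG (66.2% of windows) and ACAAT, the core of a Sox site (27.7%), had 0 matches in all 3 windows.

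Of 9644 deposited cells, 7642 passed the filter (2386, 2601, and 2655 in mice 2, 3, and 4), with a median of 6033.5 UMIs, and 12 cell barcodes occurred in more than 1 library. Clusters were made without the members among the genes used and were named from marker genes. This gave 958 ECs, 1305 epithelial, 1537 stromal, and 3020 immune cells, and 31 megakaryocyte-like cells, whereas 791 cells stayed unnamed. The 7 endothelial markers, among them *Pecam1* and *Cdh5*, together stood at 10834 to 11276 CPM (counts of UMIs per 1000000 UMIs of the group) in ECs and at 103 to 221 CPM in the other classes, and none was at 0. ECs comprised 436 *Aplnr*-type capillary, 158 arterial, 106 venous, 93 *Car4*-type capillary, and 23 lymphatic ECs, and 142 ECs of low UMI count that were not assigned to a subtype. A stromal cluster of 100 cells carried fibroblast genes such as *Dcn* and *Lum* together with the cartilage genes *Col2a1*, *Col10a1*, and *Acan*, and is called by its leading genes.

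*Sox7*, *Sox17*, and *Sox18* were highest in ECs among the 4 major classes. *Sox17* stood at 385, 356, and 380.1 CPM in ECs of mice 2, 3, and 4, against 0.717, 0.371, and 3.23 CPM in epithelial, 6.00, 2.51, and 2.37 CPM in stromal, and 4.37, 1.09, and 2.25 CPM in immune cells. *Sox7* was at 249.6, 219.8, and 256 CPM and *Sox18* at 370.3, 362, and 281 CPM in ECs. The highest library of another class was stromal, at 8.67 CPM of *Sox7*, so ECs did not overlap any other class for these 3 genes. The share of all genes that lay apart in this way was not computed, here or for the groups below. On summed counts per mouse, *Sox17* differed between ECs and epithelial cells with a log2 fold change of 7.37 ± 0.31, adjusted p = 1.7e-11, *Sox7* with a log2 fold change of 6.78 ± 0.24, adjusted p = 2.8e-12, and *Sox18* with a log2 fold change of 6.81 ± 0.21, adjusted p = 7.7e-13 (edgeR's quasi-likelihood test, adjusted by Benjamini and Hochberg over 14211 genes; ± is the SE of a fold change and the SD over mice of a level). Over the 3 mice, ECs held 85.5% ± 2.94 of all *Sox17* UMIs of the lung, 85.5% ± 0.803 of those of *Sox18*, and 79.8% ± 2.41 of those of *Sox7*, although ECs were 12.6% ± 3.4 of the cells. Counting all genes, ECs held 9634861 of 66547233 UMIs. The rest of the member UMIs includes those of cells left unnamed, among them a cluster with *Sox7* and *Sox18* among its leading genes.

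The ETS members divided. *Erg* was at 175, 203, and 203 CPM in ECs, 6.83, 11, and 10.4 CPM in stromal, and 2.62, 2.65, and 2.75 CPM in immune cells, and its groups did not overlap (log2 fold change 5.92 ± 0.26, adjusted p = 2.4e-11, ECs against immune cells by the same edgeR test). *Fli1* was at 139.7, 160.5, and 154 CPM in ECs but at 167, 208, and 182 CPM in immune cells, and in each mouse the immune value was the higher one. In the test, *Fli1* was lower in ECs than in immune cells (log2 fold change -0.55 ± 0.12, adjusted p = 0.0011) and higher than in stromal cells (log2 fold change 3.24 ± 0.15, adjusted p = 1.1e-10). The first call was lost with library totals in place of TMM scaling (-0.30, adjusted p = 0.059). *Ets1* was at 793, 693, and 770.5 CPM in ECs and at 651, 704, and 649 CPM in immune cells, with overlapping ranges and no difference called (log2 fold change -0.08 ± 0.12, adjusted p = 0.55). Stromal cells held *Ets1* at an intermediate 135, 132, and 133 CPM, and epithelial cells at 13, 12.1, and 18.9 CPM. ECs thus held 80.0% ± 1.18 of the lung's *Erg* UMIs, but 31.7% ± 9.33 of its *Fli1* UMIs and 35.7% ± 10.3 of its *Ets1* UMIs.

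*Tal1* and *Gata2* were also highest in ECs among the 4 classes. *Tal1* was at 70.9, 96.4, and 76.2 CPM in ECs and at 1.71 to 3.79 CPM in immune cells (log2 fold change 4.77 ± 0.23, adjusted p = 7.3e-11). In epithelial and stromal cells, *Tal1* came to 5 and 4 UMIs in all. *Gata2* was at 289.7, 287, and 286 CPM in ECs, the narrowest spread of the 8 members, and at 18.1, 32.5, and 38.6 CPM in immune cells (log2 fold change 3.00 ± 0.19, adjusted p = 1.8e-09). The immune value of *Gata2* was the highest outside the endothelium and came from few cells, since 66 of 3020 immune cells held a UMI of it.

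Counted together, 8 of 8 members were called and higher in ECs than in epithelial cells, where 66.3% of all 14211 genes tested were called and 33.8% were called higher in ECs. Against stromal cells the count was also 8 of 8, where 55.8% of genes were called and 24.6% called higher. Against immune cells, 7 were called and 6 of them were higher in ECs, where 69.4% of genes were called and 34.1% called higher. The median log2 fold change of the members was 6.79 against epithelial, 5.75 against stromal, and 5.34 against immune cells, beside 0.05, -0.06, and -0.02 over all genes tested.

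**Figure D1:**
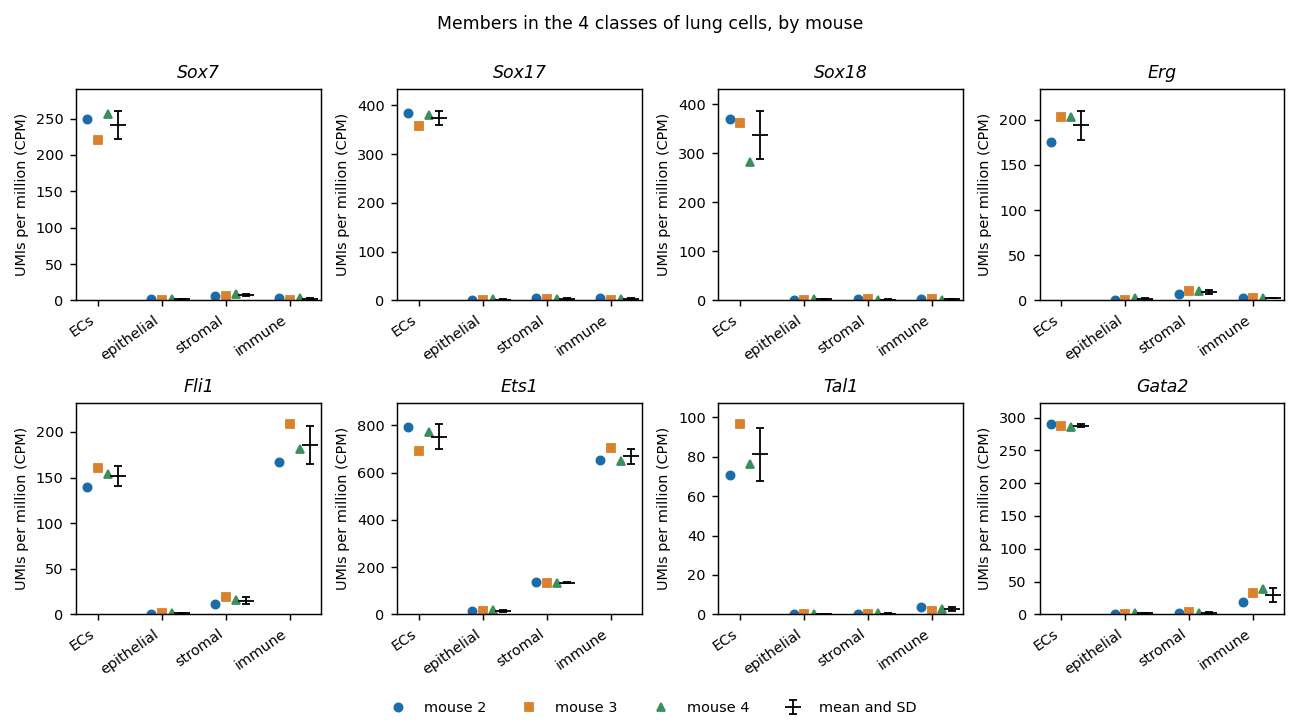
CPM of each of the 8 genes (y axis, linear from 0, 1 panel per gene) in the 4 cell classes (x axis); each symbol is 1 mouse (n = 3) and the black marks are mean and SD. The EC points lie above all others for *Sox7*, *Sox17*, *Sox18*, *Erg*, *Tal1*, and *Gata2*, whereas the immune points reach 208 CPM for *Fli1* and overlap the ECs for *Ets1*.

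The plot of levels by class shows this division, with *Fli1* and *Ets1* the members shared with immune cells. In terms of single cells, a *Sox18* UMI was detected in 77.9% ± 1.92 of ECs, *Sox17* in 75.8% ± 3.44, *Gata2* in 75.9% ± 1.00, *Sox7* in 69.5% ± 2.97, *Erg* in 67.1% ± 4.07, and *Tal1* in 47.3% ± 7.96 (SD over 3 mice). In B-cell-like cells, taken as the background of these 6 genes because B cells lack them, the shares were between 0.159% for *Tal1* and 1.00% for *Sox17*, at a median of 3960 UMIs per cell against 7592.5 in ECs. *Ets1* was detected in 88.5% ± 0.958 and *Fli1* in 60% ± 4.23 of ECs, against 8.84% and 1.28% in AT2-like cells, the background for these genes, whose median was 16194 UMIs. With every cell thinned to 1000 UMIs, which left out 72 ECs, 5 B-cell-like, and 2 AT2-like cells, shares in ECs fell to between 7.71% for *Tal1* and 49.3% for *Ets1*. In B-cell-like cells thinned in the same way, *Ets1* was in 56.9% ± 1.01 and *Fli1* in 21.9% ± 1.35, against 49.3% ± 2.22 and 13.6% ± 1.08 in ECs. All 8 members lay above their background in every mouse, thinned or not. Each background was chosen as a type taken to lack the gene, so this outcome is no test.

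**Figure D2:**
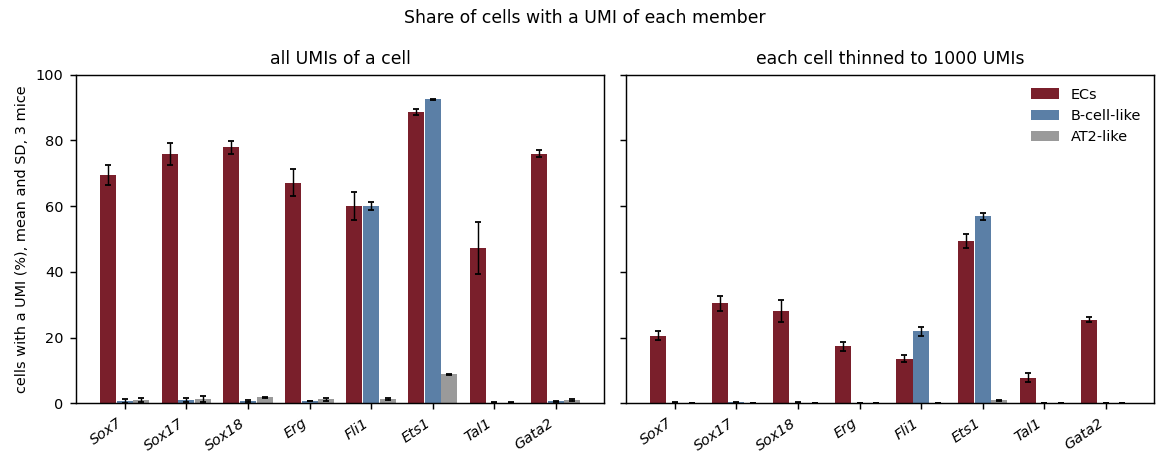
Share of cells with at least 1 UMI (y axis, percent) of each of the 8 genes (x axis) in ECs, B-cell-like, and AT2-like cells, with all UMIs of a cell (left) and with each cell thinned to 1000 UMIs (right); bars are means over 3 mice and lines the SD. EC shares run from 47.3% (*Tal1*) to 88.5% (*Ets1*) on the left, and the B-cell-like bars stand beside them for *Fli1* and *Ets1* only.

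Stromal cells held some UMIs of *Sox7* and *Erg*. *Sox7* was in 6.47% ± 0.701 and *Erg* in 8.45% ± 1.84 of stromal cells, at a median of 10549 UMIs per cell. *Sox17* and *Sox18* were in 1.93% ± 1.05 and 1.25% ± 0.172 of the same cells. In UMIs, stromal cells held 127 of *Sox7*, 164 of *Erg*, 64 of *Sox17*, and 34 of *Sox18*, whereas ECs held 2351, 1861, 3618, and 3221. Among these genes only, *Sox7* and *Erg* thus led in stromal cells, and *Sox17* and *Sox18* in ECs, which is a description without a test.

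Within the endothelium, the SoxF members were distributed over the vascular tree in 3 different ways. The EC subtypes were made by clustering the cells that were then compared, though without the members. The p-values between subtypes do not account for this. *Sox17*, known as a factor of arterial identity, was at 509, 526, and 496 CPM in *Aplnr*-type capillary ECs and at 419, 406, and 425 CPM in arterial ECs, but at 277, 206, and 221 CPM in *Car4*-type capillary and 106, 124, and 99.5 CPM in venous ECs. No range overlapped another in that order. *Sox17* was lower in venous (log2 fold change -2.10 ± 0.14, adjusted p = 6.4e-12) and *Car4*-type ECs (log2 fold change -1.10 ± 0.13, adjusted p = 3.2e-07) than in *Aplnr*-type ECs, and for arterial ECs no difference was called (log2 fold change -0.20 ± 0.12, adjusted p = 0.25, edgeR over 8921 genes), although every arterial library was lower. Arterial ECs also stood above venous ECs (log2 fold change 1.90 ± 0.14, adjusted p = 1.7e-10).

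*Sox18*, which is needed for lymphatic and vascular development, was highest in arterial ECs, at 691, 609, and 546 CPM. The other 3 subtypes lay together at 299 ± 57 CPM in venous, 282 ± 40.9 CPM in *Aplnr*-type, and 277 ± 48.8 CPM in *Car4*-type ECs, and their ranges overlapped. Arterial ECs were higher than *Aplnr*-type ECs (log2 fold change 1.22 ± 0.14, adjusted p = 2.1e-07), venous ECs (log2 fold change 1.02 ± 0.15, adjusted p = 1.8e-05), and *Car4*-type ECs (log2 fold change 1.22 ± 0.16, adjusted p = 7.5e-07). *Sox7* was highest in *Aplnr*-type ECs, at 320.4, 284, and 348 CPM, followed by venous ECs at 206, 256, and 197 CPM, and these groups did not overlap. It was lower in venous (log2 fold change -0.43 ± 0.14, adjusted p = 0.028), *Car4*-type (log2 fold change -0.98 ± 0.15, adjusted p = 3.2e-05), and arterial ECs (log2 fold change -1.15 ± 0.15, adjusted p = 9.6e-07) than in *Aplnr*-type ECs. *Car4*-type and arterial ECs, at 108 to 205 CPM and 121 to 144 CPM, overlapped, and no difference was called (log2 fold change -0.17 ± 0.19, adjusted p = 0.58).

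**Figure D3:**
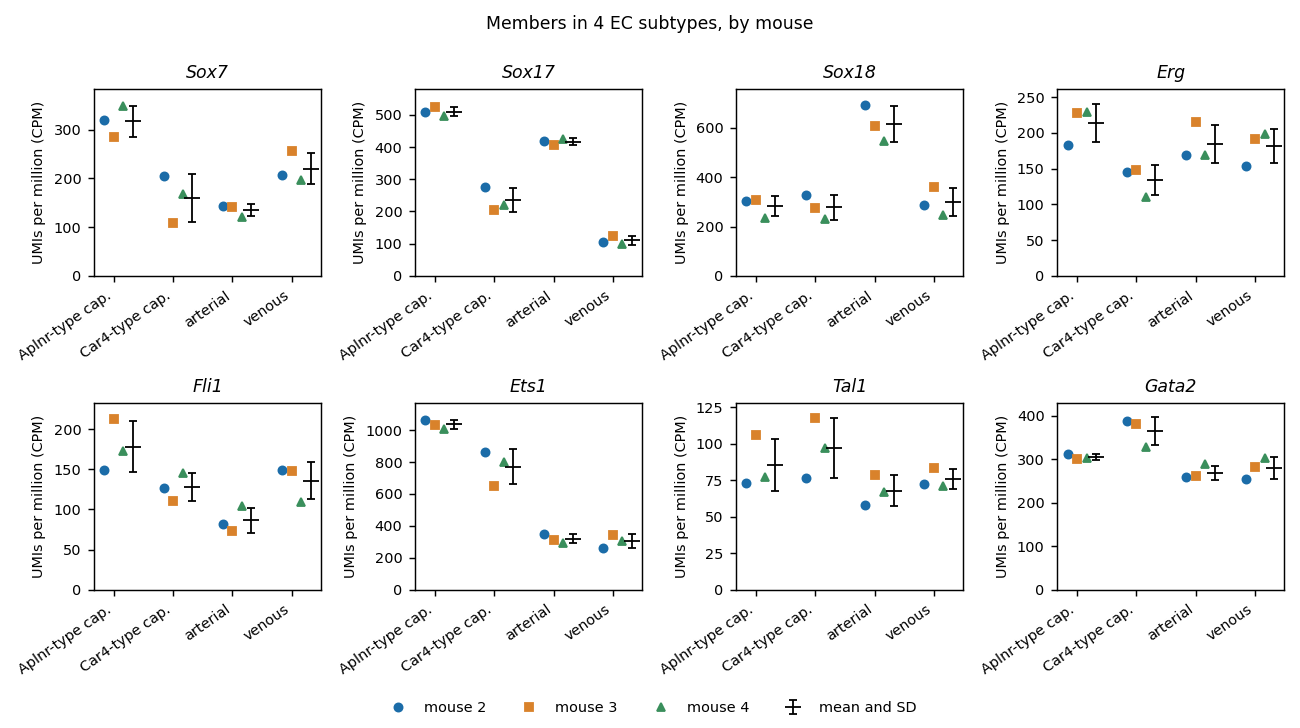
CPM (y axis, linear from 0) of each of the 8 genes, 1 panel per gene, in *Aplnr*-type capillary, *Car4*-type capillary, arterial, and venous ECs (x axis); each symbol is 1 mouse (n = 3) and the black marks are mean and SD. *Sox18* is highest in arterial ECs, *Sox17* is lowest in venous ECs, and *Ets1* is at 649.5 CPM or more in all capillary libraries and at 351 CPM or less in the others.

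Among the ETS members, *Ets1* varied most along the vessels. It was at 1064, 1034, and 1009 CPM in *Aplnr*-type ECs and 861, 649.5, and 800.4 CPM in *Car4*-type ECs, but at 351, 314, and 293 CPM in arterial and 261, 344, and 308 CPM in venous ECs. Every capillary library stood above every library of the larger vessels. *Ets1* was lower in arterial (log2 fold change -1.60 ± 0.13, adjusted p = 1.6e-10) and venous (log2 fold change -1.66 ± 0.13, adjusted p = 1.6e-10) than in *Aplnr*-type ECs, and also lower in *Car4*-type ECs (log2 fold change -0.41 ± 0.12, adjusted p = 0.021), whereas arterial and venous ECs overlapped (log2 fold change 0.06 ± 0.14, adjusted p = 0.88). Among the tested subtypes, *Fli1* was lowest in arterial ECs, at 81.9, 72.6, and 104 CPM, and highest in *Aplnr*-type ECs, at 149, 212, and 173 CPM (log2 fold change -0.92 ± 0.17, adjusted p = 9.5e-05, edgeR). Venous and *Car4*-type ECs, at 136 ± 23.1 CPM and 127 ± 17.6 CPM, overlapped each other. *Erg* was the most even of the 3, at 214 ± 26.4 CPM in *Aplnr*-type, 185 ± 26.7 CPM in arterial, and 181 ± 24 CPM in venous ECs, all overlapping, and at 134 ± 20.8 CPM in *Car4*-type ECs, where it was lower than in *Aplnr*-type ECs (log2 fold change -0.64 ± 0.15, adjusted p = 0.0027).

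*Tal1* and *Gata2* differed least between the 4 tested EC subtypes, which leave out the lymphatic ECs. *Tal1* ran from 67.9 ± 10.6 CPM in arterial to 97.1 ± 20.7 CPM in *Car4*-type ECs, all 4 ranges overlapped in the order of levels, and no pair of subtypes was called. *Gata2* was highest in *Car4*-type ECs, at 387, 381, and 329 CPM, above all libraries of *Aplnr*-type ECs at 313, 300.4, and 303 CPM, but this difference was not called (log2 fold change 0.28 ± 0.11, adjusted p = 0.11). Among the pairs of subtypes, *Gata2* was called between arterial and *Car4*-type ECs (log2 fold change -0.37 ± 0.12, adjusted p = 0.027). This call was lost under 4 of 14 alternatives, among them log-normalization (-0.16, adjusted p = 0.36) and naming of the low-UMI sub-clusters (-0.18, adjusted p = 0.35), and *Gata2* in venous against *Car4*-type ECs was called lower under 4, from -0.32, adjusted p = 0.049 without the marked doublets to -0.50, adjusted p = 0.016 with a stricter cell filter (edgeR).

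Against *Aplnr*-type ECs, 4 of 8 members were called in *Car4*-type ECs, all lower, where 15.4% of all genes tested were called. In arterial ECs 4 were called, 3 lower and 1 higher, beside 23.7% of genes, and in venous ECs 3 were called, all lower, beside 21.7%. Of the other pairs, arterial against venous ECs gave 4 calls (14.7% of genes), arterial against *Car4*-type ECs 5 (27.1%), and venous against *Car4*-type ECs 4 (25.6%). Relative to *Aplnr*-type ECs, the median log2 fold change of the members was -0.43 in *Car4*-type, -0.20 in arterial, and -0.19 in venous ECs, and that of all genes lay between -0.01 and 0.01. The 3 comparisons share the *Aplnr*-type cells. Some calls were lost when 1 mouse was left out, which also leaves fewer sums per subtype, and the fold change did not always shrink. Without mouse 4, *Sox7* in venous ECs came to -0.28, adjusted p = 0.36 and *Erg* in *Car4*-type ECs to -0.45, adjusted p = 0.13, and without mouse 3, *Ets1* in *Car4*-type ECs came to -0.30, adjusted p = 0.19 (edgeR). *Gata2* between arterial and *Car4*-type ECs came to -0.29, adjusted p = 0.16 without mouse 2 and -0.33, adjusted p = 0.15 without mouse 3. *Sox7* in venous ECs was also lost without mouse 2 (-0.38, adjusted p = 0.11), and *Ets1* in *Car4*-type ECs without mouse 4 (-0.45, adjusted p = 0.065). With all mice, *Sox7* in venous ECs was lost with DESeq2 (-0.41, adjusted p = 0.15) and without marked doublets (-0.40, adjusted p = 0.054, edgeR). *Ets1* in *Car4*-type ECs was lost at resolution 1.2 (-0.31, adjusted p = 0.096) and with log-normalization (-0.27, adjusted p = 0.15, edgeR). Between the other pairs, *Fli1* in arterial against venous ECs was lost without mouse 2 (-0.54, adjusted p = 0.16) or mouse 3 (-0.50, adjusted p = 0.2), and *Sox7* in venous against *Car4*-type ECs without mouse 3 (0.19, adjusted p = 0.52). *Erg* against *Car4*-type ECs was lost without mouse 3 or 4 in arterial (0.46, adjusted p = 0.14 and 0.46, adjusted p = 0.12) and venous ECs (0.54, adjusted p = 0.093 and 0.33, adjusted p = 0.32), and these 4 calls were also lost with DESeq2. Conversely, in *Car4*-type against *Aplnr*-type ECs, *Fli1* was not called but came out lower under 7 of 14 alternatives, with adjusted p = 0.017 to 0.048, and *Gata2* higher under 3, with adjusted p = 0.011 to 0.043. *Fli1* in arterial against *Car4*-type ECs was called lower under 3 alternatives, and *Sox18* in venous against *Car4*-type ECs higher under 1 (edgeR). The 6 stromal markers together stood at 342 to 429 CPM in *Aplnr*-type, 243 to 350 CPM in *Car4*-type, 1741 to 2381 CPM in arterial, and 2302 to 2947 CPM in venous ECs, so that these markers were higher in both vessel subtypes, and their part in the levels of the members was not tested.

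**Figure D4:**
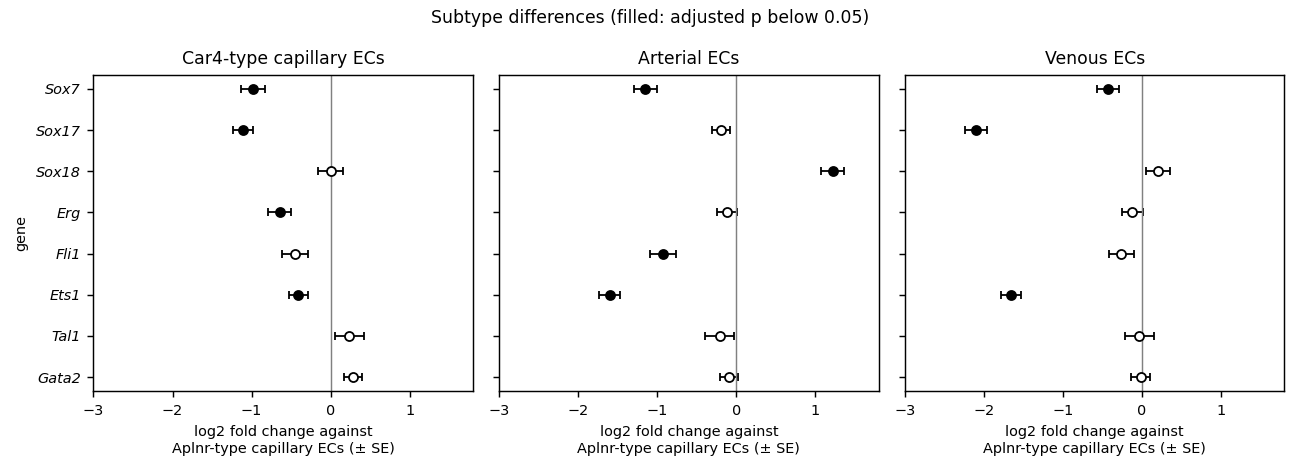
Log2 fold change (x axis) of each member (y axis) in *Car4*-type capillary, arterial, and venous ECs against *Aplnr*-type capillary ECs, 1 panel per subtype, from edgeR on sums of 3 mice; lines are 1 SE to each side and filled points passed an adjusted p of 0.05. The panels hold 4, 4, and 3 filled points, of which *Sox18* in arterial ECs (1.22) is the only one above 0 and *Sox17* in venous ECs (-2.10) the lowest.

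*Aplnr*-type and arterial ECs each held a pair of sub-clusters, between which the levels of some members lay apart. Of the arterial ECs, 99 cells led by *Cxcl12* and *Gja5* held *Ets1* at 461, 485, and 449 CPM and *Sox17* at 546, 559, and 507 CPM. The other 59, led by *Cytl1* and *Sfrp1*, held *Ets1* at 179.5, 164, and 149.9 CPM and *Sox17* at 221, 272, and 349.7 CPM, and neither gene's ranges overlapped. Markers of other classes moved with this contrast. The 6 stromal markers together stood at 1072 to 1352 CPM in the former and 2791 to 3394 CPM in the latter, the 5 immune markers at 4.58 to 340.1 and 0 to 24 CPM, and among ECs *Gzma*, *Lyz2*, and *Sftpc* were leading genes of the former, and their part in the levels was not tested. *Sox18* was at 604 ± 97.7 CPM in the former and 631 ± 81.2 CPM in the latter. Of the *Aplnr*-type ECs, 261 cells led by *Scn7a*, *Sema3c*, and *Kit* held *Gata2* at 354, 320.0, and 345 CPM and *Sox7* at 368, 301, and 382 CPM, and the other 175, led by *Gpihbp1* and *Pcdh17*, held them at 262, 286, and 225 CPM and 262, 272, and 285 CPM. *Kit* and *Pcdh17* were among the leading genes of both *Aplnr*-type sub-clusters. Among ECs, *Cxcr4*, *Hey1*, and the dividing-cell genes *Cenpf* and *Mki67* were leading genes of the latter, and their part in the levels was not tested. The levels in both pairs are descriptions without a test, and the sub-clusters, like the tested subtypes, were made from the cells compared.

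The 23 lymphatic ECs came to 11, 7, and 5 cells in the 3 mice, too few for a test, and 8 of them were marked as possible doublets. Summed over the mice, *Gata2*, which acts in lymphatic valves, was at 20 UMIs and 53.1 CPM (95% exact Poisson interval 32.4 to 82), below the 306 CPM of *Aplnr*-type ECs summed in the same way. *Sox18* was at 162 UMIs and 430.2 CPM (95% exact Poisson interval 366 to 502), *Sox17* at 48 UMIs and 127 CPM (95% exact Poisson interval 94 to 169), and *Ets1* at 211 UMIs and 560.3 CPM (95% exact Poisson interval 487 to 641). These intervals cover counting error only. *Fli1* stood at 266 CPM and *Erg* at 223 CPM.

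The 142 ECs of low UMI count, with a median of 1020.5 UMIs, carried all 8 members, from 66.9 ± 12.1 CPM for *Tal1* to 791 ± 133 CPM for *Ets1*, but stromal and B cell genes led them among ECs. A cluster of 453 cells that was left unnamed also carried the members. Its cells had a median of 843 UMIs, of which a median of 0.563% were mitochondrial, and *Sox7* and *Sox18* were among its 10 leading genes. *Sox7* was at 565, 754, and 646 CPM, *Sox18* at 632, 763, and 597 CPM, and *Ets1* at 1618, 1306, and 1616 CPM in these cells, and *Erg* at 200.3, 167, and 169 CPM. For *Sox7*, *Sox17*, *Sox18*, *Fli1*, *Gata2*, and *Ets1*, every library was above the ECs, whereas *Erg* and *Tal1* overlapped them, and the 7 endothelial markers together were lower, at 2423 to 2709 CPM. The share of all genes that lay above the ECs in this cluster was not computed, so these levels do not set the members apart from other genes. ECs had a median of 7.08% mitochondrial UMIs and 7592.5 UMIs per cell. The 146 dividing cells, a mixture of classes, held *Sox17* at 118 ± 32.5 CPM, *Erg* at 74.3 ± 20.6 CPM, and *Ets1* at 337 ± 29.2 CPM.

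In the 17 types outside the endothelium, counting the *Dcn*- and *Col2a1*-led stromal cluster, *Sox7*, *Sox17*, *Sox18*, and *Erg* stayed low. Leaving out megakaryocyte-like cells, where 1 UMI corresponds to 95.4 CPM in mouse 3, the highest mean was 17.5 CPM, for *Erg* in the *Dcn*- and *Col2a1*-led stromal cluster, whose leading genes are in part those of cartilage. *Sox17* was at 28.7, 6.15, and 3.83 CPM and *Sox18* at 25.8, 24.6, and 0 CPM in pericyte-like cells, a wide spread over 12 and 13 UMIs. All 4 genes were called lower in each of the 17 types than in *Aplnr*-type ECs. *Sox17* was not detected in interstitial macrophage- or monocyte-like cells (0 of 116 cells). An approximate 95% limit, 3 divided by the number of cells, allows a share of up to 2.59% of cells with a UMI. At a median of 2009 UMIs per cell, this limits cells with a detected UMI and not cells that express the gene, and the fold of such groups is not given.

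*Ets1* was also high in lymphocyte types. T-cell-like cells held it at 1341, 1249.5, and 1215 CPM, above every library of *Aplnr*-type ECs, though this was not called (log2 fold change 0.35 ± 0.20, adjusted p = 0.17). B-cell-like cells were at 898, 915, and 869 CPM and NK-like cells at 813, 719, and 632 CPM, and neither was called against *Aplnr*-type ECs (edgeR, log2 fold change 0.17 ± 0.19, adjusted p = 0.49, and log2 fold change -0.43 ± 0.20, adjusted p = 0.08). The B-cell-like libraries all lay below the *Aplnr*-type ones in CPM, and the sign of their fold change rested on the scaling, at -0.21, adjusted p = 0.36 with library totals and -0.03, adjusted p = 0.95 with DESeq2. *Ets1* in NK-like cells was called lower under 5 of 12 alternatives, such as DESeq2 (-0.44, adjusted p = 0.038) and library totals in place of TMM (-0.52, adjusted p = 0.029, edgeR). Among stromal types, pericyte-like cells stood out with 416, 399.8, and 444 CPM, above arterial and venous ECs, and myofibroblast-like cells followed with 161, 197, and 163 CPM. Smooth muscle-like cells were at 48.5 ± 22.5 CPM. Macrophage, dendritic, and neutrophil types ranged from alveolar macrophage-like cells at 6.82 ± 11.8 CPM to interstitial macrophage- or monocyte-like cells at 93.3 ± 30.8 CPM, with dendritic-like cells at 10.0 ± 1.98 CPM and neutrophil-like cells at 59.9 ± 10.1 CPM, and AT2-like cells were at 11 ± 2.5 CPM. Basophil- or mast-like cells stood far above these, with *Ets1* at 684 and 711 CPM in mice 3 and 4, between *Aplnr*-type and arterial ECs, and the difference from *Aplnr*-type ECs lay just outside the threshold (log2 fold change -0.68 ± 0.26, adjusted p = 0.0501, edgeR) and was called lower under 3 of 12 alternatives.

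*Fli1* was spread over most blood types. It was at 238, 269.7, and 234 CPM in B-cell-like cells, above every library of *Aplnr*-type ECs and called higher (log2 fold change 0.87 ± 0.16, adjusted p = 4.2e-06). NK-like cells, at 149 to 155 CPM, and T-cell-like cells, at 126 to 187 CPM, overlapped *Aplnr*-type ECs and were not called (log2 fold change -0.11 ± 0.21, adjusted p = 0.74, and log2 fold change -0.15 ± 0.23, adjusted p = 0.68). *Fli1* was also found in myeloid types, at 84.4 ± 14.4 CPM in interstitial macrophage- or monocyte-like, 76.3 ± 17.2 CPM in neutrophil-like, and 74.4 ± 31.8 CPM in dendritic-like cells. Pericyte-like cells held 61.1 ± 23.7 CPM and AT2-like cells 1.14 ± 0.649 CPM.

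*Gata2* had its highest level of the lung in the 44 basophil- or mast-like cells, at 1677 and 2299 CPM in mice 3 and 4, the mice with at least 10 of these cells (log2 fold change 2.56 ± 0.26, adjusted p = 1.1e-11 against *Aplnr*-type ECs, from 2 sums). Each of the 44 cells held a *Gata2* UMI, 368 in all, with at most 20 in 1 cell. *Tal1* was at 86.7 and 99.2 CPM, with no difference called from *Aplnr*-type ECs (log2 fold change 0.03 ± 0.48, adjusted p = 1), *Fli1* was at 269.8 and 281 CPM, and *Sox7*, *Sox17*, and *Sox18* had 0 UMIs in 189650.

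In the 31 megakaryocyte-like cells, *Tal1*, *Fli1*, and *Gata2* were called higher than in *Aplnr*-type ECs (log2 fold change 2.53 ± 0.37, adjusted p = 4.7e-07, log2 fold change 1.56 ± 0.36, adjusted p = 0.00059, and log2 fold change 2.19 ± 0.33, adjusted p = 5.2e-07), from sums of mice 2 and 3. These values rest on 1 cell of mouse 2, whose 56958 UMIs made up most of the 85560 UMIs of the type and which held 124 of 129 *Gata2*, 39 of 49 *Tal1*, and 39 of 52 *Fli1* UMIs. Mouse 2 stood at 1988 CPM of *Gata2* and mouse 3 at 95.4 CPM, from 1 UMI. Without that cell, summed over the other 30, *Tal1* was at 349.6 CPM (10 UMIs, 95% exact Poisson interval 168 to 643), *Fli1* at 455 CPM (13 UMIs, 242 to 777), and *Gata2* at 175 CPM (5 UMIs, 56.8 to 408). The intervals of *Tal1* and *Fli1* lay above the 82.1 and 173 CPM of *Aplnr*-type ECs summed in the same way, and that of *Gata2* held the 306 CPM of *Aplnr*-type ECs. These intervals cover counting error only and not the spread over mice. The cells summed include 9 of mouse 4, too few for a sum of their own. In neutrophil-like cells, too, 25 of the 30 *Gata2* UMIs came from 1 cell, of mouse 3, that was marked as a possible doublet.

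Across the 17 types, 8 of 8 members were called lower than in *Aplnr*-type ECs in the 3 epithelial, the 5 stromal, the dendritic-like, and both macrophage types. The count was 6 in B-cell-like, T-cell-like, and NK-like cells, 7 in neutrophil-like, 5 in megakaryocyte-like, and 4 in basophil- or mast-like cells. Of 13129 genes tested, the share called lower was 24.5% in AT1-like, 27.1% in AT2-like, and 24.8% in club-like cells. It was 20.5% in myofibroblast-like, 21.1% in smooth muscle-like, and 15.4% in pericyte-like cells, and 20.5% in *Col13a1*-type fibroblasts and 18.3% in the *Dcn*- and *Col2a1*-led stromal cluster. Among immune types it was 28.1% in B-cell-like, 23.3% in T-cell-like, 25.4% in NK-like, 29.5% in neutrophil-like, 26.8% in dendritic-like, 24% in alveolar macrophage-like, 18.5% in interstitial macrophage- or monocyte-like, and 15.9% in basophil- or mast-like cells, and it was 20.4% in megakaryocyte-like cells. Higher than in *Aplnr*-type ECs were 3 members in megakaryocyte-like cells, where 6.95% of genes were called higher, 1 in basophil- or mast-like cells (9.74% of genes), and 1 in B-cell-like cells (30.9%). In the shallow sums of megakaryocyte-like and basophil- or mast-like cells, the median log2 fold change of all genes tested was -2.86 and -0.74, so the members that were higher stood above a median below 0. The members called lower in these sums are to be read beside the same medians, since most genes leaned the same way.

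**Figure D5:**
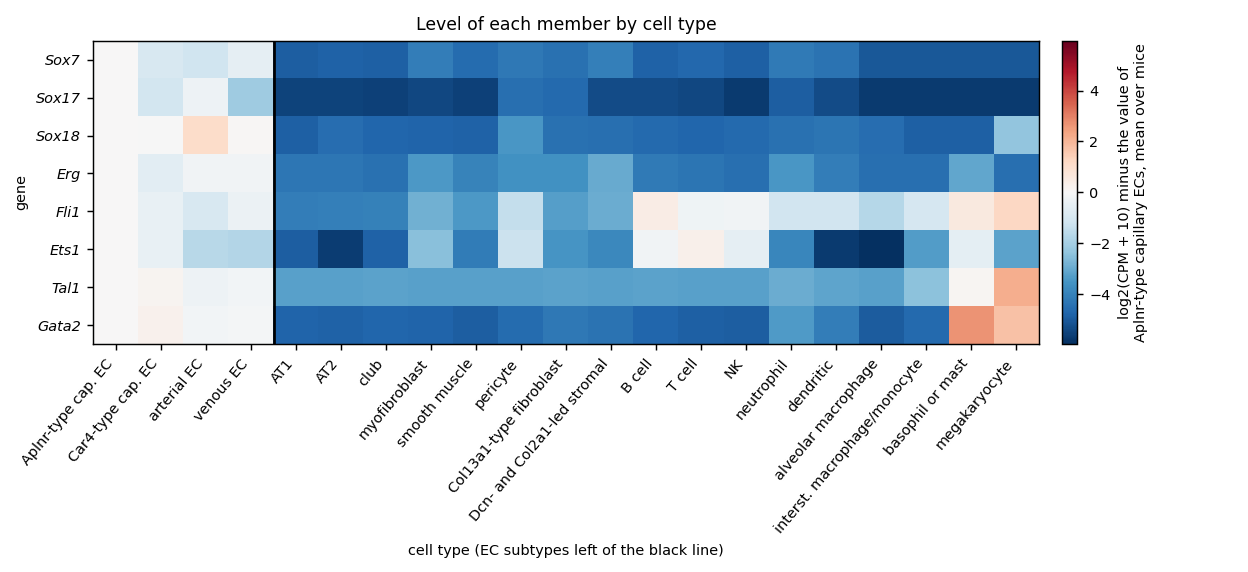
Difference of log2(CPM + 10), mean over mice, of each member (rows) between each cell type (columns) and *Aplnr*-type capillary ECs; red is higher and blue lower (color scale in log2 units), and the black line parts the EC subtypes from the other types. Outside the endothelium, red is found for *Gata2* and *Fli1* in basophil- or mast-like and megakaryocyte-like cells, for *Tal1* in megakaryocyte-like cells, of which 1 cell holds most UMIs, and faintly in basophil- or mast-like cells, for *Fli1* in B-cell-like cells, and for *Ets1* in T-cell-like cells.

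Single ECs often held UMIs of several members. The share of cells with all members of a group depends on the detection rate of each gene. Whether joint detection exceeded independent detection was not tested. Of *Aplnr*-type ECs, 69.7% ± 2.02 held UMIs of all 3 SoxF members and 58.7% ± 6.00 of all 3 ETS members, and 1 of 436 cells held no SoxF member. In arterial ECs the shares were 49.4% ± 8.7 and 25.7% ± 2.22, in venous ECs 33.8% ± 6.12 and 44.3% ± 6.23, and in *Car4*-type ECs 43.8% ± 8.7 and 46.5% ± 3.82. A median of 7 of the 8 members was detected per *Aplnr*-type EC, 6 per *Car4*-type EC, and 5 per arterial and venous EC, at median depths of 7994, 9148, 7017.5, and 8884 UMIs. In B-cell-like cells, 97.9% ± 0.836 held none of the SoxF members, and 3 of 1783 held all 3 ETS members.

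Over the 22 cell types with sums from at least 2 mice, the genes most like each member in log2(CPM + 10) fell into a few kinds. The ECs of low UMI count, which were not assigned to a subtype, were counted among these types. These correlations are descriptions over types that share libraries. *Sox7* was followed most closely by *Grrp1* and *Unc45b* (r = 0.989 each) and *Adgrl4*. *Sox17* was followed by *Adgrl4*, *Ushbp1*, and the tight junction gene *Cldn5* (r = 0.985, 0.985, and 0.984), and *Sox18* by the receptor gene *Tie1* (r = 0.986), *Stmn2*, and *Arhgef15*. *Erg* was followed by *Bvht*, *Fgd5*, and *Clec14a* (r = 0.977, 0.977, and 0.973). *Fli1* went with *Itsn2* (r = 0.942), *Stk4*, and *Srgn*, and *Ets1* with *Elk4* (r = 0.911), *Kat6a*, and *Gimap1*, a gene of lymphocytes. *Tal1* and *Gata2* had the same first gene, *Rab11a* (r = 0.926 and 0.909). Among the members, *Sox7* and *Erg* correlated at r = 0.976, *Tal1* and *Gata2* at r = 0.959, and *Tal1* and *Sox7* at r = 0.573, whereas *Fli1* correlated with *Sox7*, *Sox17*, and *Erg* at r = 0.301, 0.309, and 0.312. Without the megakaryocyte-like cells, over 21 types, *Tal1* and *Gata2* correlated at r = 0.965, *Tal1* and *Sox7* at r = 0.813, and *Fli1* and *Sox7* at r = 0.392.

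Other genes of the same families were followed from lists, with log2 fold changes ± SE given for genes that passed an adjusted p of 0.05. Of 23 other ETS factors, 20 could be tested between classes, and 8 were higher and 5 lower in ECs than in epithelial cells, with a median log2 fold change of 0.42 beside 6.47 for *Fli1* and 6.54 for *Erg*. In that comparison, 33.8% of all genes tested were called higher in ECs and 66.3% were called in either direction. The same shares stand beside the counts of the lists below against epithelial cells. *Elk3* was higher in ECs than in epithelial, stromal, and immune cells (3.88 ± 0.08, 2.78 ± 0.07, and 3.18 ± 0.08), and the epithelial factors *Ehf* (-8.59 ± 0.33) and *Elf3* (-8.24 ± 0.49) and the myeloid and B cell factors *Spi1* (-7.40 ± 0.29) and *Spib* (-6.53 ± 0.24) were lower. Along the vessels, *Ets2* was lower in arterial (-1.94 ± 0.14) and venous (-2.01 ± 0.15) than in *Aplnr*-type ECs, the same direction as *Ets1*. Of 10 other SOX factors, 9 were tested, 3 higher and 4 lower in ECs than in epithelial cells. *Sox11* was higher in ECs than in all 3 other classes (6.51 ± 0.27, 2.77 ± 0.19, and 7.01 ± 0.30) and, within ECs, lower in arterial (-4.45 ± 0.26), venous (-1.45 ± 0.19), and *Car4*-type ECs (-0.77 ± 0.17) than in *Aplnr*-type ECs.

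Of 5 other GATA factors, 3 were tested, and *Gata6* followed the larger vessels where *Gata2* did not. It was higher in arterial (2.98 ± 0.11) and venous ECs (1.47 ± 0.13) and lower in *Car4*-type ECs (-2.13 ± 0.24) than in *Aplnr*-type ECs. *Gata3* changed in the same directions (0.67 ± 0.22, 0.81 ± 0.22, and -1.15 ± 0.32). Of 13 partners of the Tal1 complex, 12 were tested between classes, and 9 were higher and 3 lower in ECs than in epithelial cells. *Lmo2*, which bridges Tal1 and Gata2, was higher in ECs than in epithelial, stromal, and immune cells (7.20 ± 0.12, 5.16 ± 0.10, and 1.34 ± 0.07), and *Lyl1*, a relative of *Tal1*, was higher than in epithelial cells (4.5 ± 0.32) but lower than in immune cells (-1.96 ± 0.17). *Runx1*, a blood factor, was lower in ECs than in all 3 (-6.03 ± 0.19, -4.62 ± 0.21, and -6.18 ± 0.19).

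Of 20 endothelial genes described as targets of these factors, 19 were tested between classes. All 19 were higher in ECs than in epithelial and in immune cells and 18 were higher than in stromal cells, but *Pecam1*, *Cdh5*, *Cldn5*, *Tie1*, *Egfl7*, and *Esam* were also used to name the ECs, so this is no independent result. Between EC subtypes the targets went both ways, and as they were not left out of the clustering, this is no independent result either. Against *Aplnr*-type ECs, 9 were higher and 5 lower in *Car4*-type ECs, 8 and 7 in arterial ECs, and 6 and 6 in venous ECs. Of all genes tested, 15.4% were called in *Car4*-type, 23.7% in arterial, and 21.7% in venous ECs, in either direction. *Cdh5*, which encodes VE-cadherin, was lower in arterial (-0.86 ± 0.09) and venous ECs (-0.94 ± 0.09), and *Cldn5* was higher in *Car4*-type (0.87 ± 0.09) and lower in venous ECs (-1.28 ± 0.09). *Kdr*, the VEGF receptor gene, was higher in *Car4*-type (2.31 ± 0.14) and lower in arterial ECs (-1.93 ± 0.16), and *Vwf* was higher in venous (5.82 ± 0.33) and arterial ECs (4.89 ± 0.32). *Sox17*, *Sox7*, *Erg*, and *Ets1* were lower in *Car4*-type ECs, where 9 targets, among them *Kdr* and *Cldn5*, were higher and 5 were lower. The *Ets1* call was lost under 4 of 14 alternatives and the *Erg* call under 1. A relation between the factors and these targets was not tested.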

How the data were processed

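Droplet 3′ scRNA-Seq libraries of 3 mouse lungs were analysed, and per the labels and the study's methods the authors aligned reads to mm10 with Cell Ranger 3.0.2 and deposited UMI counts, not normalized, for each gene in each cell. Cells were kept from 200 genes upwards and up to 20% mitochondrial UMIs, normalized by SCTransform (Seurat 5.3.0), clustered at resolution 0.8 on 30 principal components (20 for ECs), and named from marker genes. Doublets were scored (scanpy 1.11.5) and kept. The automatic cutoff marked 0.641% of the cells, and a rate of 0.8% per 1000 cells, which was used here, marked 156. UMIs were summed per mouse and type of at least 10 cells and tested with edgeR 4.0.16 (quasi-likelihood, TMM, low counts filtered, Benjamini-Hochberg adjustment, threshold 0.05). The SE of a fold change was its absolute value divided by the square root of the F statistic of this test. The scripts were tested on simulated data. The libraries held 22476491 to 25192427 UMIs. Intervals cover counting error only. Mice were separate animals and each gave every type, so the mouse was a block in an alternative fit (same-mouse deviations correlated at r = -0.062 to 0.269 over 18 pairs). Alternatives changed the cell filter, doublets, resolution, variable genes, normalization, count filter, test, and mice. Named genes were the members, the 3 genes most like each, and up to 4 genes per list and direction. The members, lists, and tests were chosen with earlier results of these data known, and the thresholds for naming were set after the clusters were seen.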

Additional observations from a re-analysis of the deposited data

How the results depend on the processing

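Leaving out 1 mouse at a time, the number of members called stayed at 8, 8, and 7 against epithelial, stromal, and immune cells and ranged from 18 to 22 of 48 over the pairs of EC subtypes (24 with all mice) and from 115 to 122 over the types outside the endothelium (127 of 136 with all mice), where types with sums from 1 mouse dropped out. The replicate block gave 8, 8, 7, 24, and 127 calls and changed no call. The other alternatives gave 19 (DESeq2) to 26 calls over the EC pairs and 103 (stricter cell filter, with at least 500 genes and no more than 10% mitochondrial UMIs) to 129 over the types, of which fewer could be tested under some, and 6 to 7 against immune cells. The naming of the EC sub-clusters of low UMI count, an alternative chosen after seeing the data, gave 22 and 127. Among the tested EC subtypes, each member kept its highest one under every alternative except *Tal1*. *Tal1* was highest in *Aplnr*-type ECs with log-normalization and with the low-UMI sub-clusters named. With the stricter cell filter, *Sox17* in venous against *Car4*-type ECs came to -0.017 (adjusted p = 0.98, edgeR), and the cause was not tested. The signs that turned all belonged to log2 fold changes that were not called. With library totals alone, these were *Ets1* ECs against immune cells 0.17, and *Ets1* B-cell-like against *Aplnr*-type -0.21. With DESeq2, these were *Erg* arterial against venous -0.00243, *Sox18* *Car4*-type against *Aplnr*-type 0.0205, and *Ets1* B-cell-like against *Aplnr*-type -0.0321. With the stricter cell filter, these were *Ets1* ECs against immune cells 0.11, *Erg* arterial against venous -0.0838, *Sox7* arterial against *Car4*-type 0.56, *Sox18* venous against *Car4*-type -0.0180, *Sox18* *Car4*-type against *Aplnr*-type 0.25, and *Fli1* NK-like against *Aplnr*-type 0.0338. Without marked doublets, these were *Gata2* venous against *Aplnr*-type 0.0532, and *Sox18* *Car4*-type against *Aplnr*-type 0.00640. At resolution 0.4, these were *Gata2* venous against *Aplnr*-type 0.00504, and *Sox18* *Car4*-type against *Aplnr*-type 3.7e-04. At resolution 1.2, this was *Sox18* *Car4*-type against *Aplnr*-type 0.0150. With log-normalization, these were *Gata2* arterial against venous 0.21, *Ets1* arterial against venous -0.0682, *Erg* arterial against venous -0.0267, *Tal1* venous against *Car4*-type 0.14, *Fli1* venous against *Aplnr*-type 0.0830, *Tal1* *Car4*-type against *Aplnr*-type -0.16, *Fli1* NK-like against *Aplnr*-type 0.14, and *Tal1* basophil- or mast-like against *Aplnr*-type -0.0349. With the mouse as replicate block, this was *Tal1* basophil- or mast-like against *Aplnr*-type -0.0245. Over the fits that left out 1 mouse, the signs turned within the ranges *Ets1* ECs against immune cells -0.12 to 0.00824 (turned without mouse 3), *Ets1* arterial against venous -0.12 to 0.16 (turned without mouse 2), *Erg* arterial against venous -0.0778 to 0.13 (turned without mouse 2 and mouse 3), *Sox7* arterial against *Car4*-type -0.44 to 0.0134 (turned without mouse 2), *Gata2* venous against *Aplnr*-type -0.0823 to 0.0696 (turned without mouse 2), *Tal1* venous against *Aplnr*-type -0.0875 to 0.0267 (turned without mouse 3), *Sox18* *Car4*-type against *Aplnr*-type -0.0699 to 0.0667 (turned without mouse 3), *Erg* arterial against *Aplnr*-type -0.21 to 0.00779 (turned without mouse 4), *Fli1* T-cell-like against *Aplnr*-type -0.36 to 0.0781 (turned without mouse 3), and *Fli1* NK-like against *Aplnr*-type -0.21 to 0.00157 (turned without mouse 3). The depth limits *Tal1* and all rare types most, and levels in megakaryocyte-like cells without their deepest cell, also added after seeing the data, rest on 5 to 13 UMIs of *Gata2*, *Tal1*, and *Fli1*.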
